A study of Homo sapiens with 36 samples.

Results

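Innate immune and interferon pathway genes were examined for GATA2 peaks in HUDEP-2, a human line of immortalized erythroid progenitors. The set held 38 genes, of 19974 protein-coding genes on chromosomes 1 to 22 and X. They were chosen by pathway and not by a measured value. A gene had a peak in a library when the summit of a peak lay in the gene body or within 10 kb on either side. In 28 libraries with a peak list, 156 peaks met this rule, at 11 of the 38 genes, and they merged into 24 separate sites.

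The innate immune system senses microbial nucleic acids and other microbial molecules through Toll-like receptors and through sensors in the cytosol. Adaptors and kinases pass the signal to transcription factors of the interferon regulatory factor (IRF) and NF-kB families, which switch on interferon and inflammatory genes. Interferons then act through their own receptors on cells that need not be infected. GATA2, which binds GATA motifs through zinc fingers, is needed in blood stem cells and early progenitors. In mouse progenitors, loss of a Gata2 enhancer is known to raise innate immune genes, Irf8 among them. The T354M change lies in the C-terminal zinc finger of GATA2 and is known from families with myelodysplastic syndrome and acute myeloid leukemia.

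The assay was CUT&Tag, in which an antibody directs a transposase to cut and tag DNA beside a bound protein. There were 7 groups of 4 libraries, all from HUDEP-2 cells infected with lentivirus and sorted for GFP. GATA2 low cells, with the genotype GATA2+/-, carried lentiviral HA-GATA2(T354M), a form with the T354M change and an HA tag (called T354M here), lentiviral HA-GATA2, or an empty vector. Wild-type cells carried the empty vector. All were grown with erythropoietin, stem cell factor, doxycycline and dexamethasone. The 4 kinds of cells were each assayed with an in-house anti-GATA2 antibody, and the 3 kinds of GATA2 low cells also with an anti-HA antibody. Anti-GATA2 libraries of the infected GATA2 low cells do not separate tagged from endogenous GATA2. The labels do not say whether the GATA2 low cells are a clone or whether replicates were separate cultures, so the p-values below reflect the spread among libraries that may be technical replicates.

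Peaks per library numbered 4841 ± 1530 for T354M, 10427 ± 2281 for HA-GATA2, 2446 ± 844 for the empty vector and 7653 ± 1253 for wild-type cells with anti-GATA2 (SD, n = 4 each). With anti-HA they numbered 601 ± 166 for T354M, 4267 ± 1763 for HA-GATA2 and 1 to 13 per library for the empty vector, which holds no tag. Read totals are unknown. The foot of the background in each list, in fragments per window, gave a relative depth of 0.479 for T354M, 0.431 for HA-GATA2, 0.174 for the empty vector and 0.265 for wild-type anti-GATA2 libraries, and of 0.375 and 0.403 for T354M and HA-GATA2 anti-HA libraries. Fragments divided by the background, below, use this 1 value per library and not the background at the site. The peak caller had scaled down only the T354M and HA-GATA2 anti-GATA2 libraries. A pair of libraries needs care. The title of empty vector anti-GATA2 replicate 1 says GATA2 low while its genotype label says wild-type, and the title was followed. HA-GATA2 anti-HA replicate 4 had 1925 peaks, the fewest of its group, and no peak at any of the 38 genes. Peaks lay at all 10 erythroid loci examined, GATA1, KLF1 and ALAS2 among them, and at 3 of 10 loci of other blood cells (CD14, LYZ and CSF1R). This is occupancy and not expression.

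Of the 38 genes, 29 had a promoter in the RefSeq table, and 4 of these had a site across the 250 bases before the transcription start, namely IFNAR1, IRF1, RIGI and TNFAIP3. The 3 windows below are shown because they stand for a start with GATA motifs that the peaks did not cover, for the start with the most libraries, and for a gene whose peaks in wild-type cells lay away from its start. Capitals mark GATA motifs (AGATAA as well as AGATAG, and likewise TGATAA as well as TGATAG, on either strand) in IFNAR1, GC boxes (GGGCGG on either strand, overlapping matches included) in TNFAIP3 and IRF1, and the interferon-activated motif GAS (TTCNNNGAA) in IRF1. Sequences are from RefSeq, build GRCh38.p14, read 5′ to 3′ toward the gene.
IFNAR1, chr21:33324145-33324394, plus strand: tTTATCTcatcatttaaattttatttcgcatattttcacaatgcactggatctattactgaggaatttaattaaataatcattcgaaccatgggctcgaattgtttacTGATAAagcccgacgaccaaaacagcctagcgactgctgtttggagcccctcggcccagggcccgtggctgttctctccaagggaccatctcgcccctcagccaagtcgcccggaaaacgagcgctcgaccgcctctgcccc
TNFAIP3, chr6:137867009-137867258, plus strand: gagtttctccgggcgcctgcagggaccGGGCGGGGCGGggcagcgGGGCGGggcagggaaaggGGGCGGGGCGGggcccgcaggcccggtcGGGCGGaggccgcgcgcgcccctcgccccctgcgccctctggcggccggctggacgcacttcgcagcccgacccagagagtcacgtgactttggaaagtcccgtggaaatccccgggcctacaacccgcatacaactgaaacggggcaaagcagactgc
IRF1, chr5:132490774-132491023, minus strand: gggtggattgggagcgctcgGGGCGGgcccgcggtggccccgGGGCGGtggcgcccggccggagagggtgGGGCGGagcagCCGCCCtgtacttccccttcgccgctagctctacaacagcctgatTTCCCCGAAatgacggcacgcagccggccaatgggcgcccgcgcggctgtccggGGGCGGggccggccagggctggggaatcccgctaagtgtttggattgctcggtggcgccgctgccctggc

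The GATA matches before IFNAR1 lay 249 to 244 and 142 to 137 bases before the start, while the merged site there ran from 82 bases before to 447 bases after it, so neither match lay under the peaks. No GATA match lay in the windows of TNFAIP3, IRF1 or RIGI. Only windows directly before a transcription start were searched for motifs. At the TNFAIP3 start site, all HA-GATA2 and wild-type anti-GATA2 summits lay upstream of the TNFAIP3 window. Whether GATA motifs lie under peaks outside the windows, the leading RIGI, CGAS, MYD88 and MAVS sites among them, was not tested. The TNFAIP3 start used here lies 910 bp inside its gene body, so its window also lies in the gene body. Of the 29 genes with a promoter in the table, 3 (10.3%) held a GATA match, namely IFNAR1, IRF9 and TLR4, against 22.3% of 35116 promoters of the same length. IRF9 and TLR4 had no peak. TNFAIP3 had 6 GC boxes, 4 of them in 2 overlapping pairs, and IRF1 had 5 together with a GAS match 124 to 116 bases before its start. GC boxes stood in 72.4% of the 29 promoters against 42.6% of all, GAS matches in 17.2% against 6.57%, and matches to the interferon-stimulated response element (ISRE: GAAA, a gap of any 2 bases, GAAA, on either strand) in 10.3% against 3.02%. These matches are letters in a window and not measured binding.

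The genes are given here by layer of the pathway. All 10 Toll-like receptor genes had no peak in any of the 28 libraries. Among 4 sensor genes RIGI and CGAS had peaks, and IFIH1, the RNA sensor MDA5, and NLRP3, an inflammasome sensor, had none. Among 8 genes for adaptors, kinases and ligases MYD88, MAVS and TBK1 had peaks, and IRAK1, IRAK4, TRAF3, TRAF6 and STING1 had none. Of 4 interferon receptor genes IFNAR1, IFNAR2 and IFNGR2 had peaks and IFNGR1 had none. Of 11 transcription factor genes only IRF1 and IRF3 had peaks, so IRF2, IRF4, IRF5, IRF7, IRF8, IRF9, STAT2, NFKB1 and RELA had none. The inhibitor gene TNFAIP3 had peaks. The 11 genes with a peak were 28.95% of the 38, whereas 42.1% of all protein-coding genes had one, with median windows of 42.6 kb and 44.17 kb. No gene of the set had a peak in all 28 libraries.

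**Figure D1:**
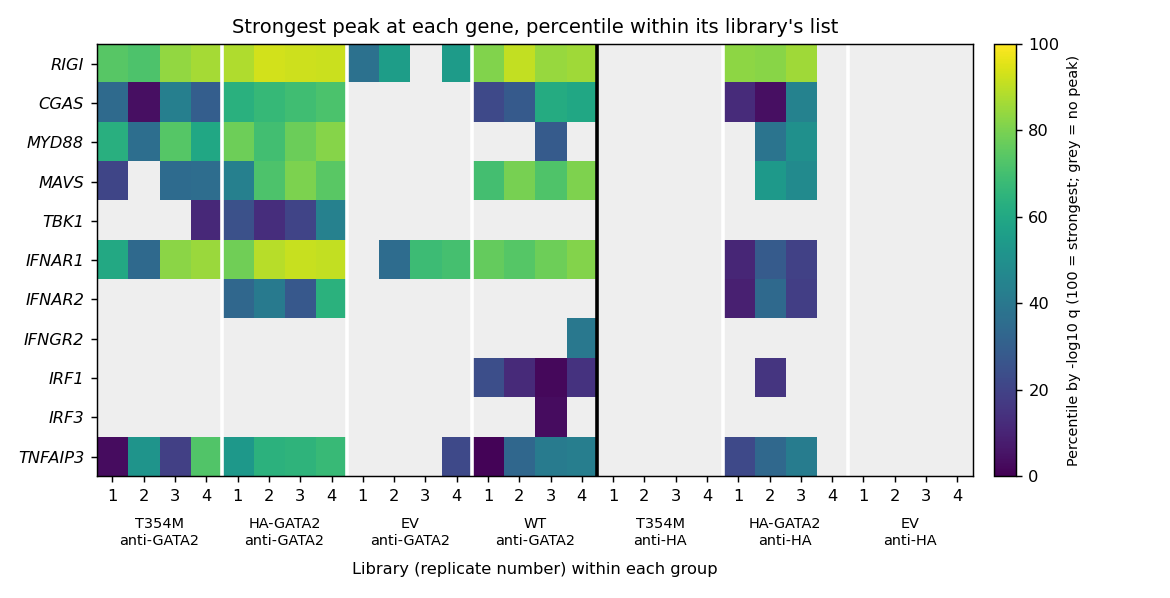
Each row is 1 of the 11 genes with any peak and each column 1 library, in groups of 4; the colour gives the percentile of the gene's strongest peak within its own list by the deposited −log10 q, and grey means no peak. RIGI and IFNAR1 reach the highest percentiles, IRF1 is coloured in the 4 wild-type libraries and 1 anti-HA library, and T354M anti-HA and empty vector anti-HA columns are grey throughout.

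Most sites lay outside the genes. Of the 24 sites, 7 lay in the body of their gene and 17 outside it, and 10 were also within 10 kb of another protein-coding gene. The rule itself adds 10 kb on either side of each gene, and the same shares for all protein-coding genes were not computed. Widths ran from 167 to 1204 bp with a median of 286.5 bp. Of the 7 sites found in at least 10 libraries, 1 lay in its gene, at the start of TNFAIP3. A further 7 sites came from a single library. A peak near a gene is a position and does not show which gene, if any, the bound factor acts on. Fewer cells with a bound site and less binding per cell cannot be told apart in these bulk libraries.

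RIGI encodes the cytosolic sensor of viral RNA with a triphosphate end. Its leading site, chr9:32533215-32533962, had its median summit 7305 bp before the RIGI start, and the nearest gene was TOPORS, a ubiquitin and SUMO ligase gene. A peak was present in 4 of 4 T354M, 4 of 4 HA-GATA2, 3 of 4 empty vector and 4 of 4 wild-type anti-GATA2 libraries. The fragments stacked at the summit numbered 49, 65, 68 and 76 in the T354M libraries, 90, 119, 130 and 128 in the HA-GATA2 libraries, 17, 20 and 20 in the 3 empty vector libraries with a peak, and 45, 66, 53 and 55 in the wild-type libraries. As counted, HA-GATA2 libraries were the highest and empty vector libraries the lowest, and neither overlapped another group. The share of all sites with such a separation was not computed on any scale, here or at the sites below. A lack of overlap therefore cannot be set against the level of all sites. Divided by each library's background, the fragments came to 108 to 181 for T354M, 211 to 301 for HA-GATA2, 79.6 to 131 for the empty vector and 156 to 248 for wild-type cells. On that scale HA-GATA2 libraries overlapped the wild-type ones, and the 3 empty vector libraries with a peak overlapped those of T354M. The empty vector library without a peak has no value here, so the lower end of its group is unknown. With anti-HA the site had 36, 38 and 42 fragments in 3 of 4 HA-GATA2 libraries and no peak in the T354M or empty vector libraries. Within the lists this was a strong peak, with percentiles (100 being the strongest of the list) of 72.2 to 86.7 for T354M, 87.9 to 93.1 for HA-GATA2, 37.4 to 55.7 for the empty vector and 81.2 to 90.8 for wild-type cells with anti-GATA2, and of 82.4 to 85.9 for HA-GATA2 with anti-HA. Lists differ in length, so these percentiles place the peak within its own list and show no change between groups. A pair of weaker RIGI sites, near its start, came from 1 HA-GATA2 library each.

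CGAS encodes the cytosolic DNA sensor cGAS. Its leading site, chr6:73459515-73460249, lay 7622 bp from the gene, nearest to MTO1, a gene for mitochondrial tRNA modification. Fragments at the summit numbered 48, 49, 56 and 47 in T354M, 76, 88, 92 and 100 in HA-GATA2 and 26, 28, 32 and 32 in wild-type anti-GATA2 libraries, and the 4 empty vector libraries had no peak. As counted, the 3 groups with peaks did not overlap, and the share of all sites separated in this way was not computed. Divided by the background, the fragments came to 83.5 to 122 for T354M, 178 to 230.4 for HA-GATA2 and 90.0 to 144 for wild-type cells, so T354M and wild-type libraries overlapped and HA-GATA2 libraries stood above both. The deposited fold, over the background at the site, was 5.10 to 7.62 for T354M, 10.6 to 13.3 for HA-GATA2 and 5.96 to 10.8 for wild-type cells. By that fold HA-GATA2 libraries overlapped the wild-type ones. With anti-HA the summits held 16, 15 and 23 fragments in 3 of 4 HA-GATA2 libraries, and T354M and empty vector libraries had no peak. Within the lists it stood at percentiles of 4.20 to 43.2 for T354M, 63.5 to 71.8 for HA-GATA2 and 19.1 to 49.6 for wild-type cells with anti-GATA2. A further CGAS site, chr6:73422546-73422754, 1043 bp from the other end of the gene and also within 10 kb of DDX43, was found in 1 of 4 HA-GATA2 and 3 of 4 wild-type anti-GATA2 libraries, at percentiles of 11.2 in the HA-GATA2 library and 28.2 to 61.4 in the wild-type libraries.

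**Figure D2:**
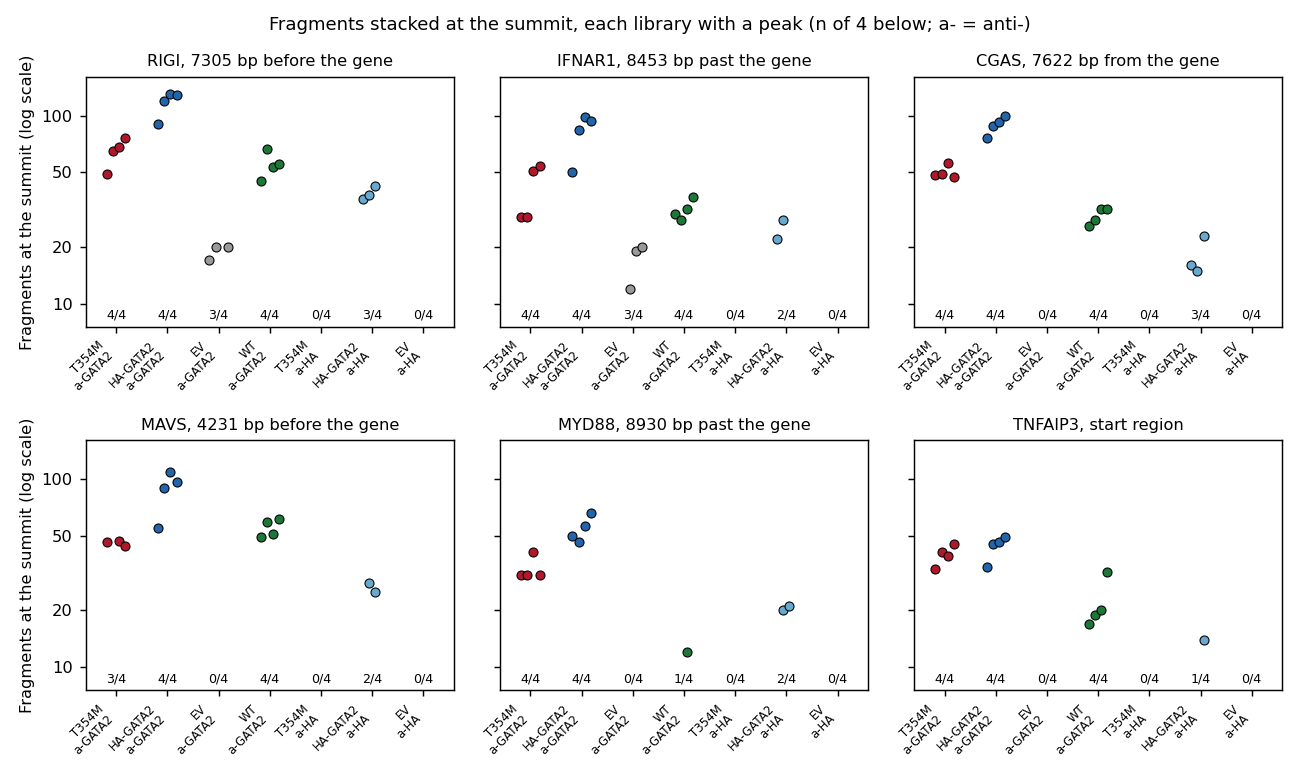
Each panel is 1 site and each point 1 library with a peak there, by group; the vertical axis is the number of fragments stacked at the summit on a log scale, and the label at the foot gives the libraries with a peak out of 4. HA-GATA2 anti-GATA2 libraries lie highest at RIGI, with 90 to 130 fragments, and at CGAS, with 76 to 100, and the empty vector has points at RIGI and IFNAR1 only. The counts are not divided by depth.

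MYD88 encodes the adaptor shared by most Toll-like receptors and by receptors of the interleukin 1 family. Its leading site, chr3:38151027-38152230, had its median summit 8930 bp past the gene. It held 31, 31, 41 and 31 fragments in T354M, 50, 46, 56 and 66 in HA-GATA2 and 12 in 1 of 4 wild-type anti-GATA2 libraries, with no peak in the 4 empty vector libraries. T354M and HA-GATA2 libraries did not overlap, and both stood above the wild-type library. Again the share of all sites in this order was not computed. Divided by the background, the ranges were 52.8 to 89.3 for T354M and 106.4 to 152 for HA-GATA2, against 48.9 in the wild-type library, in the same order. Percentiles were 36.0 to 73.7 for T354M, 69.6 to 81.9 for HA-GATA2 and 28.7 in the wild-type library. With anti-HA, 2 of 4 HA-GATA2 libraries had 20 and 21 fragments there. A weaker neighbour, chr3:38149848-38150159, had a peak in the 4 HA-GATA2 anti-GATA2 libraries, with 18 to 23 fragments, and in no other library.

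MAVS encodes the mitochondrial adaptor downstream of RIGI and IFIH1. Its leading site, chr20:3842214-3842905, lay 4231 bp before the start. Fragments at the summit numbered 46, 47 and 44 in 3 of 4 T354M libraries, 55, 89, 109 and 96 in HA-GATA2 libraries and 49, 59, 51 and 61 in wild-type anti-GATA2 libraries, and the 4 empty vector libraries had no peak. Wild-type libraries overlapped the lowest HA-GATA2 library and stood above the T354M libraries. Divided by the background, the fragments came to 102 to 105 for T354M, 129 to 253 for HA-GATA2 and 169.7 to 275 for wild-type cells, where HA-GATA2 and wild-type libraries overlapped. Percentiles were 20.9 to 35.9 for T354M, 43.6 to 80.3 for HA-GATA2 and 70.0 to 80.5 for wild-type cells, so the peak was among the stronger ones of the wild-type lists. A second position inside MAVS, chr20:3871884-3872099, had a peak in the 4 HA-GATA2 anti-GATA2 libraries alone, at percentiles of 9.40 to 17.8. TBK1 encodes the kinase that phosphorylates IRF3. Its single site, chr12:64446202-64446584, lay 5659 bp before the start and inside XPOT, the exporter of tRNA from the nucleus. It had 22 fragments in 1 of 4 T354M libraries and 29, 25, 27 and 30 in the HA-GATA2 anti-GATA2 libraries, and no peak in empty vector or wild-type cells or with anti-HA.

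IFNAR1 and IFNAR2 encode both chains of the type I interferon receptor, and they lie near each other on chromosome 21. The leading IFNAR1 site, chr21:33368069-33368684, lay 8453 bp past the gene. Its fragments numbered 29, 29, 51 and 54 in T354M, 50, 84, 98 and 93 in HA-GATA2, 12, 19 and 20 in 3 of 4 empty vector and 30, 28, 32 and 37 in wild-type anti-GATA2 libraries. As counted, empty vector libraries were the lowest, and T354M libraries overlapped both HA-GATA2 and wild-type libraries. Divided by the background, the ranges were 49.4 to 129 for T354M, 117 to 227 for HA-GATA2, 71.3 to 131 for the empty vector and 92.8 to 167 for wild-type cells. On that scale the 3 empty vector libraries with a peak overlapped all 3 other groups and were not the lowest. The empty vector library without a peak has no value here, so the lower end of its group is unknown. The percentiles were 34.1 to 85.1 for T354M, 78.3 to 91.6 for HA-GATA2, 35.4 to 70.4 for the empty vector and 73.7 to 81.5 for wild-type cells. With anti-HA, 2 of 4 HA-GATA2 libraries had it, at percentiles of 0.342 and 28.9. The peak at the IFNAR1 start, chr21:33324313-33324842, was weak in each list that had it, at percentiles of 2.31 to 19.5 in 2 of 4 HA-GATA2 and 2 of 4 wild-type anti-GATA2 libraries and in 3 of 4 HA-GATA2 anti-HA libraries.

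IFNAR2 had peaks in HA-GATA2 libraries and in no other group. Its leading site, chr21:33268562-33268975, lay 3085 bp past the gene and inside IL10RB, which encodes a chain of the interleukin 10 receptor. It held 29, 33, 27 and 50 fragments in the HA-GATA2 anti-GATA2 libraries and 11, 16 and 14 in 3 of 4 HA-GATA2 anti-HA libraries. The percentiles were 27.6 to 63.7 with anti-GATA2 and 8.85 to 34.2 with anti-HA. IFNGR2, a chain of the interferon gamma receptor, had a peak in 1 of 4 wild-type anti-GATA2 libraries, at a percentile of 40.0 with 17 fragments.

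IRF1, a transcription factor induced by interferon gamma, had most of its peaks in wild-type cells. The site chr5:132495987-132496285, 5425 bp before the start, had 21, 18, 21 and 17 fragments in the 4 wild-type anti-GATA2 libraries and no peak in any of the other 24 libraries. These peaks were near the foot of the lists, at percentiles of 23.9, 11.9, 2.33 and 14.7. A peak at the IRF1 start, 179 bp before it, came from 1 HA-GATA2 anti-HA library. IRF3, the factor that TBK1 activates, had a peak in 1 of 4 wild-type anti-GATA2 libraries at a percentile of 3.34, within 10 kb of SCAF1 and BCL2L12 as well.

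TNFAIP3 encodes A20, a ubiquitin-editing enzyme that damps NF-kB signalling, and it had 33 of the 156 peaks, the most of the 38 genes. Its site at the start, chr6:137866227-137867265, had a peak in 4 of 4 T354M, 4 of 4 HA-GATA2, 0 of 4 empty vector and 4 of 4 wild-type anti-GATA2 libraries and in 1 of 4 HA-GATA2 anti-HA libraries. Distances here are from a RefSeq start that lies 910 bp inside the gene body, which begins at 137866349. Summits fell at separate positions. Those 929 to 885 bp before the start came from 2 T354M and 4 HA-GATA2 libraries, and no wild-type summit lay there. These far summits lay at 137866330 to 137866374, around the outer end of the gene body. The peaks themselves covered all of those positions in 3 T354M, 4 HA-GATA2 and 3 wild-type libraries, so signal at the far position is not shown to be absent from wild-type cells. Those 482 to 205 bp before it came from 3 T354M, 2 HA-GATA2 and 4 wild-type anti-GATA2 libraries and from 1 HA-GATA2 anti-HA library. The strongest peak of the site by q was thus at the far position in the HA-GATA2 libraries, at percentiles of 53.2 to 67.2, and at the near position in the wild-type libraries, at percentiles of 0.915 to 42.9. In T354M it was far in replicates 2 and 4 and near in 1 and 3. A rank by q also depends on the background at each position. HA-GATA2 replicates 3 and 4 had peaks at both, with 46 and 49 fragments at the far and 41 and 40 at the near position. The ranges were drawn after the summits were seen, and no test was made of them. Upstream, the site chr6:137863323-137863596 had a peak in 1 of 4 T354M and 4 of 4 HA-GATA2 anti-GATA2 libraries, with 22 fragments in the T354M library and 25 to 41 in the HA-GATA2 libraries. The site chr6:137856373-137856772, 9669 bp before the gene, had a peak in 1 of 4 T354M, 4 of 4 HA-GATA2, 1 of 4 empty vector and 3 of 4 wild-type anti-GATA2 libraries and in 3 of 4 HA-GATA2 anti-HA libraries.

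**Figure D3:**
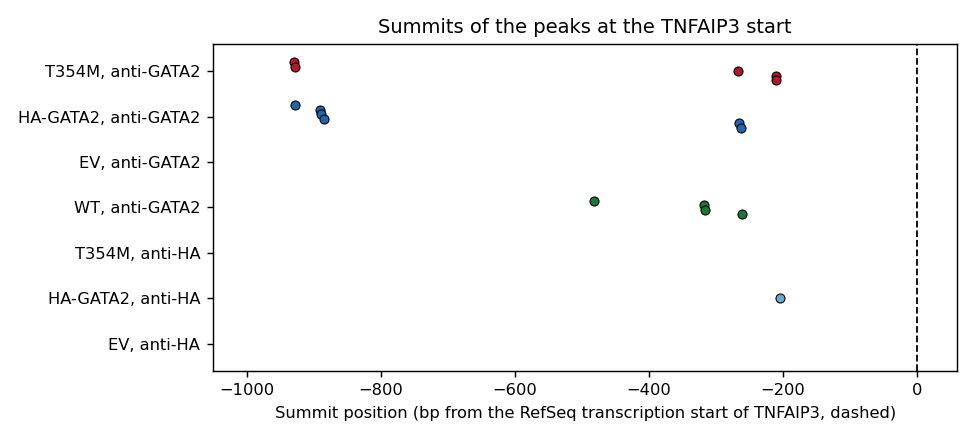
Each point is the summit of 1 peak, placed by its distance in bp from the RefSeq start of TNFAIP3 (dashed line), with groups down the page. That start lies 910 bp inside the gene body. T354M and HA-GATA2 anti-GATA2 summits lie both 929 to 885 bp and 267 to 211 bp before the start, and wild-type summits lie 482 to 261 bp before it.

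The number of the 38 genes with a peak gives the overall level. With anti-GATA2 it was 6, 5, 6 and 7 in T354M, 8 in each HA-GATA2 library, 1, 2, 1 and 3 in empty vector and 6, 6, 8 and 7 in wild-type libraries. The empty vector libraries lay below the libraries of the other 3 groups. As a percent of the 38 genes this was 15.8 ± 2.15 for T354M, 21.1 ± 0 for HA-GATA2, 4.61 ± 2.52 for the empty vector and 17.8 ± 2.52 for wild-type cells (SD, n = 4 each). Over all protein-coding genes the percent was 16.1 ± 4.84, 26.4 ± 4.30, 8.58 ± 2.73 and 25.4 ± 3.36 in the same 4 groups, so the 38 genes were near or below the level of all genes in each. With anti-HA the T354M libraries had 0 of 38 genes in each, against 2.35% ± 0.629 of all genes, and the HA-GATA2 libraries had 5, 8, 7 and 0 genes. Without HA-GATA2 replicate 4, the library that stands apart, the mean of the HA-GATA2 anti-HA libraries was 6.67 genes against 5 with it. The empty vector anti-HA libraries had 0 in each. No test was made of these numbers.

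**Figure D4:**
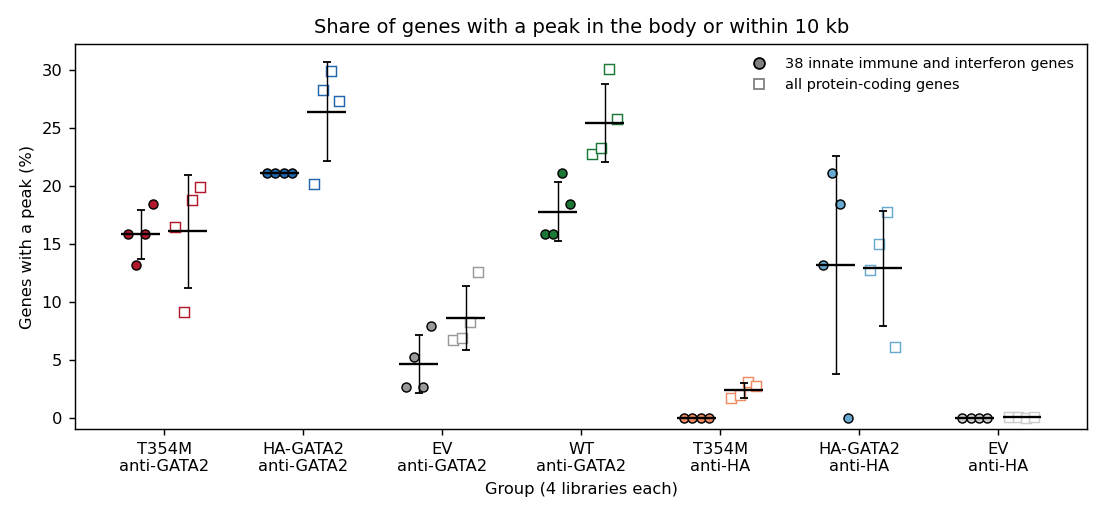
For each group, filled circles give the percent of the 38 genes with a peak in each library and open squares the percent of all 19974 protein-coding genes; bars give the mean and SD of 4 libraries. The empty vector anti-GATA2 libraries lie lowest among the anti-GATA2 groups, at 4.61% of the 38 genes and 8.58% of all genes, and the HA-GATA2 anti-HA group spans 0 to 8 genes.

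Each pair of groups was compared gene by gene, by the libraries with and without a peak. Only a split of 4 of 4 against 0 of 4 reaches the smallest p of this design, 0.0286 by Fisher's exact test (two-sided). Adjusted over all genes with a peak in any of the 8 libraries, that p could pass 0.05 only if more than 57.1% of those genes were split in this way, and 0 of the 38 genes passed in any comparison.

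GATA2 low and wild-type cells that both carried the empty vector were set against each other to ask which peaks go with the GATA2 genotype. IRF1, MAVS and CGAS had a peak in 0 of 4 empty vector GATA2 low and 4 of 4 wild-type libraries. These 3 genes are 7.89% of the 38, and the same split held for 5.49% of all protein-coding genes. None of the 38 genes had the opposite split (0.00501% of all genes). By merged sites 4 of 24 were split in this way, those of IRF1, MAVS and CGAS and the site at the TNFAIP3 start, against 8.82% of all sites. MYD88, IRF3 and IFNGR2 had a peak in no empty vector GATA2 low library and 1 wild-type library each. TNFAIP3 stood at 1 of 4 against 4 of 4, and RIGI and IFNAR1 at 3 of 4 against 4 of 4. The 3 full splits had an adjusted p of 0.181 in Fisher's exact test over 6955 genes, and of 0.0323 when adjusted over the 1240 genes found in exactly 4 libraries, the only ones that could pass; 88.5% of those 1240 passed. With lists of equal length, the strongest 1839 peaks of each library, 0 of the 38 genes were fully split (0.12% of all genes had peaks only in the GATA2 low and 0.155% only in the wild-type libraries), and MAVS then stood at 0 of 4 against 2 of 4 and RIGI at 3 of 4 against 4 of 4. Without empty vector replicate 1, the library with conflicting labels, the count was again 3 here, and 5 and 2 in the comparisons of HA-GATA2 and T354M with the empty vector that follow. Leaving out each library in turn gave 3 to 4, 5 to 6 and 2 to 3 in that order. Within 50 kb in place of 10 kb, MAVS had a peak in 4 of 4 libraries of both groups and its split was lost, while IRF3 and IRAK1 stood at 0 of 4 against 4 of 4.

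HA-GATA2 was set against the empty vector in GATA2 low cells to ask where added GATA2 gives peaks. MYD88, IFNAR2, MAVS, CGAS and TBK1 had anti-GATA2 peaks in all 4 HA-GATA2 libraries and in 0 of 4 with the empty vector. That is 13.16% of the 38 genes, and the split held for 7.77% of all protein-coding genes. By merged sites, 9 of 24 had this split, against 19.4% of 17277 sites in all; at MYD88, MAVS and TNFAIP3 more than 1 site did. TNFAIP3 stood at 4 of 4 against 1 of 4, and RIGI and IFNAR1 at 4 of 4 against 3 of 4. The adjusted p of the 5 splits was 0.122 in Fisher's exact test over 6640 genes and 0.032 over the 1737 genes found in exactly 4 libraries, 89.3% of which passed. In lists of 1839 peaks each, 0 of the 38 genes were fully split (0.641% of all genes had peaks only with HA-GATA2 and 0.501% only with the empty vector), MYD88 stood at 1 of 4 against 0 of 4, and RIGI and IFNAR1 at 4 of 4 against 3 of 4. Within 50 kb MAVS and IFNAR2 had a peak in 4 of 4 libraries of both groups, so both splits were lost, and TLR9, the Toll-like receptor for DNA, stood at 4 of 4 against 0 of 4.

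T354M was set against the same empty vector libraries. MYD88 and CGAS had anti-GATA2 peaks in all 4 T354M libraries and in 0 of 4 with the empty vector. They are 5.26% of the 38 genes, and the split held for 1.06% of all protein-coding genes. By merged sites 3 of 24 were split, the leading MYD88 and CGAS sites and the site at the TNFAIP3 start, against 2.59% of all sites. MAVS stood at 3 of 4 against 0 of 4, TBK1 at 1 of 4 against 0 of 4 and TNFAIP3 at 4 of 4 against 1 of 4. The splits were not called by either adjustment of Fisher's exact test (adjusted p = 0.663 over 4917 genes and 0.074 over the 549 found in exactly 4 libraries, 0% of which passed; unadjusted p 0.0286). In lists of 1839 peaks each, 0 of the 38 genes were fully split (0.37% of all genes had peaks only with T354M and 0.23% only with the empty vector), and MYD88 stood at 3 of 4 against 0 of 4, TNFAIP3 at 2 of 4 against 0 of 4, RIGI at 4 of 4 against 3 of 4 and, the other way, IFNAR1 at 2 of 4 against 3 of 4.

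T354M and HA-GATA2 were set against each other to ask how the changed protein differs. IFNAR2 had a peak in 0 of 4 T354M and 4 of 4 HA-GATA2 anti-GATA2 libraries, 2.63% of the 38 genes against 2.93% of all protein-coding genes. TBK1 stood at 1 of 4 against 4 of 4 and MAVS at 3 of 4 against 4 of 4, and RIGI, CGAS, MYD88, IFNAR1 and TNFAIP3 had a peak in every library of both. The adjusted p of the IFNAR2 split was 0.344 in Fisher's exact test over 7056 genes and 0.0441 over the 904 genes found in exactly 4 libraries, 64.8% of which passed. By merged sites 3 of 24 had a peak in no T354M library and in all 4 HA-GATA2 libraries, the weaker MYD88 site, the IFNAR2 site inside IL10RB and the site inside MAVS, against 8.59% of all sites. In lists of 2789 peaks each, IFNAR2 had no peak in either group, 0 of the 38 genes were fully split (0.426% of all genes had peaks only with T354M and 0.37% only with HA-GATA2), and TNFAIP3 stood at 2 of 4 T354M against 0 of 4 HA-GATA2 libraries, MYD88 at 4 of 4 against 3 of 4 and MAVS at 0 of 4 against 1 of 4. Within 50 kb in place of 10 kb, IFNAR2 had a peak in 4 of 4 libraries of both groups, and 0 genes were split. Without T354M replicate 4, TBK1 joined IFNAR2 and the count became 2.

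With anti-HA the tagged proteins alone are followed. A peak in at least 1 HA-GATA2 library was found at 8 of the 38 genes (21.05%), near the 20.04% of all protein-coding genes. Between HA-GATA2 and the empty vector 0 of the 38 genes were fully split, against 5.75% of all protein-coding genes. Without HA-GATA2 replicate 4 the count was 5, namely IFNAR1, IFNAR2, TNFAIP3, RIGI and CGAS, each present in 3 of 3 HA-GATA2 libraries against 0 of 4 with the empty vector. The share of all genes with a split of 3 of 3 against 0 of 4 was not computed, here or for T354M against HA-GATA2. The 5 genes therefore cannot be set against the level of all genes. T354M and empty vector libraries had no peak at any of the 38 genes, while 0.981% of all genes were fully split between them. Between T354M and HA-GATA2 0 of the 38 were fully split, against 2.82% of all genes, and without HA-GATA2 replicate 4 the same 5 genes had a peak in 0 of 4 T354M and 3 of 3 HA-GATA2 libraries. No gene of the 38 had an unadjusted p under 0.05 in Fisher's exact test in these 3 comparisons (smallest adjusted p over all genes 0.0996, 0.124 and 0.205). In lists of 432 peaks each, neither T354M nor HA-GATA2 had a peak at any of the 38 genes with anti-HA, while 0.11% of all genes had peaks only with T354M and 0.0801% only with HA-GATA2.

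The tagged proteins were also set against wild-type cells with anti-GATA2. These comparisons share the T354M, HA-GATA2 and wild-type libraries with those above. IFNAR2 and TBK1 had peaks in all 4 HA-GATA2 and 0 of 4 wild-type libraries, a split that 2% of all protein-coding genes had, and IRF1 stood at 0 of 4 against 4 of 4, as did 0.811% of all genes. MYD88 stood at 4 of 4 HA-GATA2 against 1 of 4 wild-type libraries. IRF1 had a peak in 0 of 4 T354M and 4 of 4 wild-type libraries, as did 1.46% of all genes, while 0 of the 38 had the opposite split (0.0801% of all genes), and MYD88 in 4 of 4 T354M against 1 of 4 wild-type libraries. The adjusted p of these splits was 0.42 for HA-GATA2 and 0.668 for T354M in Fisher's exact test over all genes with a peak in any of the 8 libraries. Over the genes found in exactly 4 libraries it was 0.0475 for HA-GATA2, where 60.1% of 933 genes passed, and 0.0655 for T354M, where 0% passed. By merged sites, 5 of 24 were found in every HA-GATA2 and no wild-type library, against 7.72% of all sites. They were the weaker MYD88 site, the IFNAR2 site inside IL10RB, the middle TNFAIP3 site, the site inside MAVS and the TBK1 site. The IRF1 site 5425 bp before the start had the opposite split, against 1.17% of all sites, and the same split in T354M against wild-type cells, against 2.77%. In lists of 6577 peaks each, 0 of the 38 genes were fully split between HA-GATA2 and wild-type cells (1.4% of all genes had peaks only with HA-GATA2 and 1.78% only in wild-type cells), IFNAR2 stood at 3 of 4 against 0 of 4, TBK1 at 2 of 4 against 0 of 4 and IRF1 at 0 of 4 against 2 of 4. In lists of 2789 peaks each, IRF1 had no peak in T354M or wild-type cells, MYD88 stood at 4 of 4 T354M against 0 of 4 wild-type libraries (0.325% of all genes) and MAVS at 0 of 4 against 4 of 4 (also 0.325%). Within 50 kb IFNAR2 had a peak in 4 of 4 libraries of both HA-GATA2 and wild-type cells. Without wild-type replicate 3, MYD88 was present in every T354M and HA-GATA2 library and in 0 of 3 wild-type ones, which made the counts 1 for T354M and 3 for HA-GATA2.

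A list of 50 other innate immune and interferon genes was counted in the same way, and 17 of them (34%) had a peak in any library, against 42.1% of all protein-coding genes. With anti-GATA2 they numbered 3.75 ± 1.89 per library for T354M, 8.5 ± 1.73 for HA-GATA2, 2.25 ± 1.26 for the empty vector and 6.75 ± 2.22 for wild-type cells (SD, n = 4 each). As a percent of the 50 genes these means were 7.5, 17, 4.5 and 13.5 in that order, below the 16.1, 26.4, 8.58 and 25.4 of all protein-coding genes. JAK1, the kinase bound to interferon receptors, had a peak in all 16 anti-GATA2 libraries and in 3 of 4 HA-GATA2 anti-HA libraries. TRAF1, a signalling adaptor of TNF receptors, and NLRC4, an inflammasome component, stood at 4 of 4 HA-GATA2 against 0 of 4 empty vector anti-GATA2 libraries, and REL, an NF-kB subunit, and IFIT1, an interferon-induced RNA-binding protein, at 3 of 4 against 0 of 4. NLRC4 stood at 0 of 4 T354M against 4 of 4 HA-GATA2 libraries, TRAF1 at 1 of 4 against 4 of 4, and REL and IFIT1 at 0 of 4 against 3 of 4. NFKBIA, the inhibitor of NF-kB, stood at 2 of 4 T354M against 0 of 4 empty vector libraries. BST2, which tethers budding viruses, stood at 1 of 4 empty vector GATA2 low against 4 of 4 wild-type libraries and ADAR, an RNA-editing enzyme, at 2 of 4 against 4 of 4. IKBKG, a regulatory subunit of the IkB kinase, and TRAF1 stood at 0 of 4 against 2 of 4. With anti-HA, ADAR and TRIM25 were each found in 1 of 4 HA-GATA2 libraries. In T354M against wild-type cells, TREX1 and IKBKG stood at 0 of 4 against 2 of 4. Adjusted over all genes with a peak in any of the 8 libraries, Fisher's exact test called 0 of the 50 genes in each comparison, and at an unadjusted p of 0.0286 it held 2 genes for HA-GATA2 against the empty vector and 1 each for T354M against HA-GATA2 and HA-GATA2 against wild-type cells. The same splits held for 7.77%, 2.93% and 2% of all protein-coding genes in that order, so these counts do not set the 50 genes above all genes.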

How the data were processed

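Peak lists of 28 CUT&Tag libraries, 7 groups of 4 by title, were used; 8 IgG-titled libraries of the 36 described were not analysed here. The submitters' processing notes name MACS2 2.2.7.1 besides FastQC, Bowtie2 2.2.5, cutadapt 3.3 and deepTools 3.5.3, and hg38 as the build, while their settings were not given in the sources used here. A list per library was deposited. The deposited fold is a linear ratio of summit fragments to background, the deposited p-value and q-value are −log10 values (lowest −log10 q 6), and the deposited score derives from the q. These values are the authors' and served to rank, filter or recover depth, and the fold is also given at some sites.

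Gene bodies came from a RefSeq table (GRCh38.p14), without exons. Peaks of all lists that overlapped by at least 1 bp were merged into sites. A percentile is a peak's rank by −log10 q in its list. Fragments at a summit and the local background were computed from each peak's deposited fold and −log10 p (98.61% to 100% of peaks matched to 0.03% in lists of at least 100 peaks); caller scales of 0.5 to 0.706 were divided out. The background is the foot of its distribution in a list. Fisher's exact test compared libraries with and without a peak per gene, with Benjamini-Hochberg adjustment over genes with a peak in any of the 8 libraries, and was checked on simulated data. Alternatives were gene bodies alone, 50 kb, −log10 q of at least 15, any overlap, equal lists, each library left out, a narrower adjustment and a replicate block. For HA-GATA2 and T354M against wild-type cells these alternatives, and for all sites the division of fragments by a library's background, were added after seeing the data. Every gene was accounted for. Those with a peak in at least 3 of 4 libraries of a group were described in full, and 4 other pathway genes per comparison were named by the largest difference. Ties were cut by list order, so an unnamed gene can have the same difference as a named one. An item that this rule also named is not reported here. Genes and lists were chosen with earlier results of these data known. Python 3.11.15, scipy 1.17.1 and pandas 2.3.3 were used.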

Additional observations from a re-analysis of the deposited data

Results flagged for a closer look

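The fragments at the leading MYD88 site in the 4 T354M anti-GATA2 libraries stood at 31, 31, 41 and 31, and the library at 41, replicate 3, was set apart from the others by more than Dixon's 95% critical value. The same library had the highest percentile of its group there, 73.7. The other counts were tied at 31, so a gap of any size would have passed that value. The flag thus does not show how far the library stood apart. This was 1 of 53 groups of 4 values examined, and chance sets apart about 1 in 20 such groups where values are not tied. The flagged counts were not divided by depth. Divided by each library's background they came to 68.6, 52.8, 89.3 and 73.8 in replicates 1 to 4, and those values were not examined for outliers.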

How the results depend on the processing

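Counts of fully split genes and the mean number of genes with a peak were recomputed under each alternative. For the split counts, the share over all genes was recomputed only with lists of equal length. Split counts under the other alternatives thus cannot be set against the level of all genes. Adjusted over genes with a peak in exactly 4 of 8 libraries, Fisher's exact test called 3 genes for empty vector GATA2 low against wild-type cells, 5 for HA-GATA2 against the empty vector, 1 for T354M against HA-GATA2 and 3 for HA-GATA2 against wild-type cells with anti-GATA2, in place of 0. With a replicate block (exact McNemar test, smallest p 0.125) 0 genes were called in each comparison; same-numbered libraries did not deviate together, with correlations of −0.048 to 0.112. With lists of equal length the 3, 5, 2 and 1 genes of the first 4 anti-GATA2 comparisons became 0. Alternatives for the comparisons with wild-type cells were added after seeing the data. For HA-GATA2 against wild-type cells, the 2 genes with peaks only with HA-GATA2 became 1 with gene bodies alone, 1 within 50 kb and 0 with lists of equal length, and the 1 gene with peaks only in wild-type cells became 0, 2 and 0, and 0 with −log10 q of at least 15. For T354M against wild-type cells, the 0 genes with peaks only with T354M became 1 with lists of equal length and 1 with −log10 q of at least 15, and the 1 gene with peaks only in wild-type cells became 0 with gene bodies alone, 2 within 50 kb and 0 with −log10 q of at least 15; with lists of equal length it was 1, but MAVS in place of IRF1. Leaving out single libraries gave 2 to 3 and 0 to 1 for the genes with peaks only with HA-GATA2 and only with T354M. Counts can hide a change of genes: within 50 kb the count was 4 in place of 3 for empty vector GATA2 low against wild-type cells, with MAVS lost and IRF3 and IRAK1 gained, and 4 in place of 5 for HA-GATA2 against the empty vector, with MAVS and IFNAR2 lost and TLR9 gained. With gene bodies alone the counts became 1 for empty vector GATA2 low against wild-type cells, 1 for HA-GATA2 and 0 for T354M against the empty vector. With −log10 q of at least 15 they became 1 for empty vector GATA2 low against wild-type cells and 1 for T354M against the empty vector. Within 50 kb, T354M against HA-GATA2 became 0 with anti-GATA2 and 1 with anti-HA, and HA-GATA2 against the empty vector with anti-HA became 4. Leaving out single libraries gave 1 to 2 for T354M against HA-GATA2 with anti-GATA2 and 0 to 5 for both HA-GATA2 comparisons with anti-HA, the 5 without HA-GATA2 replicate 4. Mean genes per anti-GATA2 library with bodies alone, within 50 kb and with −log10 q of at least 15 were 0.75, 10.75 and 4.75 for T354M, 3, 12.75 and 7.5 for HA-GATA2 and 2, 13 and 4.5 for wild-type cells; for the empty vector they were 0 and 6 with bodies alone and within 50 kb. With anti-HA they were 2 for T354M within 50 kb and 1 for HA-GATA2 with bodies alone, and 2.75 for HA-GATA2 with −log10 q of at least 15, against 5. Any overlap of the peak in place of its summit kept each count within 1.5 times. Lists of equal length were not run for comparisons with the empty vector anti-HA libraries, whose lists hold 1 to 13 peaks. Presence of a peak depends on depth, which differed between groups, and an absent peak is a site not detectable at this depth.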
